A study of Mus musculus with 2 samples.

Results

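The genes described here code for 10 enzymes that make, modify or break down ceramide, the lipid at the centre of sphingolipid metabolism. They were picked by gene symbol, and each of the 10 symbols matched 1 of the 33943 genes in the deposited matrix. The choice was made with earlier summaries of these data by cell type and by animal in view, so their values are a description of these animals and not independent support for any pattern.

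Single-nucleus RNA sequencing was run on the inguinal mammary fat pad of 8 lactating mice on postnatal day 11, and nuclei of all animals were pooled in 1 library. The labels give 4 Oxtrflox dams, which carry a floxed oxytocin receptor gene (Oxtr), and 4 OxtrΔAd dams, in which Oxtr is deleted in adipocytes; both share the floxed allele, a chow diet and breeding at 8 weeks of age, and litters were trimmed on day 1. No source used here names the driver of that deletion, so the cells it acts in are known from the group's name alone. A second library of hashtags, DNA tags that mark the animal of a nucleus, names 4 hashtags WT and 4 Oxtr-KO. WT was taken as the floxed group, the other genotype in the labels, and every genotype comparison rests on that reading. Whether the dams came from separate litters is not given per animal, so p-values measure the spread between these 8 animals.

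Unique molecular identifiers (UMIs, 1 per captured RNA molecule) were summed per animal and cell type, and levels are UMIs per 1000000 UMIs of that sum (CPM). The matrix held 107910356 UMIs in 21805 barcodes, with a median of 4212 per barcode, and each animal contributed 1248 to 2054 assigned nuclei. Cell types were named from marker genes, and the adipocyte cluster raised all 10 of its markers at least 2-fold, with Car3, Pck1, Cidec and Plin1 among its leading genes. Adipocytes gave 373 assigned nuclei, 31 to 73 per animal, and sums of 160475 to 388513 UMIs per animal. Secretory luminal nuclei, the milk-producing epithelium, gave 9858. Their cluster raised 3 of its 10 markers at least 2-fold (Btn1a1, Xdh and Elf5), and no milk protein gene was among these. Another cluster of 1109 nuclei raised 7 secretory luminal markers, all of them milk protein genes. It held 6 mitochondrial genes among its 10 leading genes and stayed unnamed. Oxtr itself gave 1 UMI in adipocytes of each floxed animal and 4, 6, 5 and 4 UMIs in the labelled knockout animals. That order goes against the labels, although UMIs counted per gene cannot show whether the deleted part was read, and the group is called labelled knockout throughout. Milk protein genes took 6.59% to 8.66% of UMIs in adipocyte nuclei, and whether these were free RNA from secretory cells was not tested. Some nuclei were washed to lower free RNA, and the sources do not say in which animals. A stricter rule for hashtags, with the top tag at least 3 times the second, called 16343 barcodes as doublets, so the assignment to animals rests on the calling model.

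Ceramide is built on a sphingoid base that serine palmitoyltransferase makes from serine and a fatty acyl-CoA; Sptlc1 and Sptlc2 code for its main subunits. Ceramide synthases (Cers genes) attach a fatty acid whose length depends on the enzyme, and the desaturase Degs1 turns dihydroceramide into ceramide. Ceramide is then turned into sphingomyelin (by Sgms1) or glucosylceramide (by Ugcg) or broken down to sphingosine by ceramidases such as Acer2. In fat tissue, ceramides are known for their link to insulin resistance, and adiponectin receptors are known to promote ceramidase activity. In the mammary gland, sphingomyelin and glucosylceramide are components of the membrane around milk fat globules.

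Promoters of Sptlc1, Sptlc2 and Acer2 are printed here because these 3 genes were the ones higher in adipocytes of every labelled knockout animal than of any floxed animal. Each line gives the 250 bases before the annotated transcript start, 5′ to 3′ on the gene's strand, from RefSeq on the build GRCm38.p6 (the counts were made on GRCm39). Capitals mark GGGCGG, the GC box, on either strand.
Sptlc1 (chr13:53377362-53377611, minus strand): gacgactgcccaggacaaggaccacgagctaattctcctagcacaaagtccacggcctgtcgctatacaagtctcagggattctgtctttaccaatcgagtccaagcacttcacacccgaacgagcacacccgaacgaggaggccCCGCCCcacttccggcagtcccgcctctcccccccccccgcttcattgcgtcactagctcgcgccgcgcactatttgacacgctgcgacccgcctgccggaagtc
Sptlc2 (chr12:87388356-87388605, minus strand): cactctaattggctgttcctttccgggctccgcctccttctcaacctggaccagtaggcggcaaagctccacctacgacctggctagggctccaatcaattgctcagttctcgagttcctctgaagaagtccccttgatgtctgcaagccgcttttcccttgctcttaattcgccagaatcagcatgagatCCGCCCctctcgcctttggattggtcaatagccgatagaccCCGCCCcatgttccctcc
Acer2 (chr4:86874164-86874413, plus strand): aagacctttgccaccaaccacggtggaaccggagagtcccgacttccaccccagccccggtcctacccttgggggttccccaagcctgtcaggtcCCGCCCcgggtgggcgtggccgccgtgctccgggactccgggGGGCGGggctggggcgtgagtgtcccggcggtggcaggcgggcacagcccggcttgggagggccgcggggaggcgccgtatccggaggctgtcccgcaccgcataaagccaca
The GC box, a site that Sp-family factors are known to bind, occurred once in the Sptlc1 window and 2 times each in the windows of Sptlc2 and Acer2. It was found in at least 1 promoter of 8 of the 10 enzymes, which have 14 windows together. Of all 32851 windows of that length in the table, 32.7% held it. The first is a count of genes and the second a share of windows, so the 2 are not directly comparable. CCAAT (on either strand) occurred 3 times in the Sptlc2 window, once for Sptlc1 and not for Acer2, and was in 33.8% of all windows. Another 4 motifs, searched on both strands, were in none of these 3 windows. The E-box CACGTG was in 6.02% of all windows and in 1 window of each of 3 other enzymes, Degs1, Cers6 and Cers2. The nuclear receptor half-site AGGTCA was in 14%, the TATA box TATAAA in 12.4% and the STAT5-type site TTCNNNGAA in 7.02% of all windows. These matches are a description of the letters. Whether a factor binds there was not tested.

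Levels across cell types separated the enzymes into those read in every cell type and those that were high in a few. A mean over 8 animals could be given for 7 cell types. All levels by cell type are descriptions without a test, and 2 neighbours in the order were called separate only where their ranges over animals did not overlap. Because transcripts differ in length, levels are compared between cell types for 1 gene and not between genes.

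**Figure D1:**
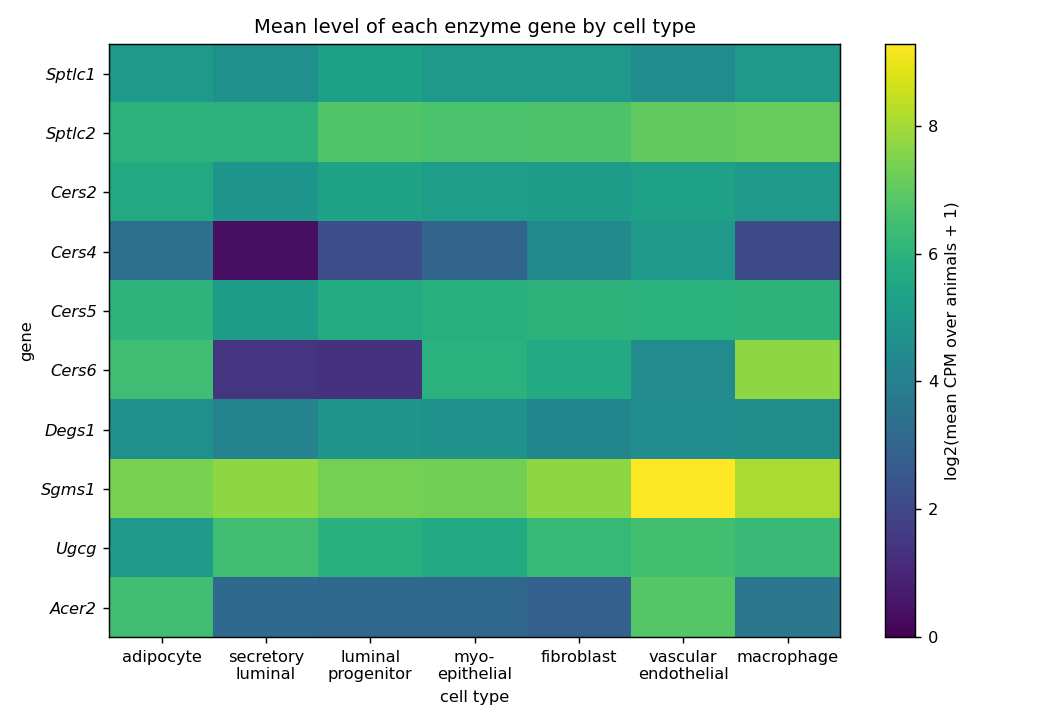
Mean level of each of the 10 enzyme genes (rows) in 7 cell types (columns), as the colour of log2(mean CPM + 1) over 8 animals. Cers6 is dark in both luminal types, Cers4 is darkest in secretory luminal nuclei, Acer2 is bright in adipocytes and vascular endothelium, and Sgms1 is brightest in vascular endothelium.

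Both serine palmitoyltransferase subunits were read in all 7 cell types. The mean level of Sptlc1 lay between 21.9 CPM in vascular endothelium and 36.95 CPM in luminal progenitors, and every pair of neighbours in the order overlapped. Sptlc2 had its highest mean in macrophages, 137 ± 29.5 CPM (SD, n = 8), followed by vascular endothelium with 129 ± 31.7 CPM. Its lowest means were in adipocytes, 61.4 ± 32.5 CPM, and secretory luminal nuclei, 61.0 ± 8.92 CPM. The adipocyte mean joins groups that did not overlap, with means of 32.6 CPM in floxed and 90.3 CPM in labelled knockout animals. The animals behind them are given below. Within animals, adipocytes were below vascular endothelium in 8 of 8 and below macrophages in 7 of 8.

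Of the ceramide synthases, Cers6, which is known to make ceramides with palmitate-length chains, varied most between cell types. Macrophages had 204.8 ± 63.1 CPM of Cers6, from 105.1 to 320.3. Adipocytes had 84.5 ± 23.5 CPM, from 54.9 to 118.4, and were below macrophages of the same animal in 8 of 8. Myoepithelial nuclei, the contractile cells around the alveoli, had 59.3 ± 5.82 CPM and fibroblasts 49.7 ± 13.9 CPM. Secretory luminal nuclei had 1.65 ± 0.647 CPM, from 0.479 to 2.53, and luminal progenitors 1.49 ± 2.76 CPM. The drop from vascular endothelium (21.3 CPM) to secretory luminal nuclei was 12.9-fold and was the single step in the order of any of the 10 genes where neighbours did not overlap. It was measured on 1 to 3 UMIs per animal in endothelium. The luminal lineage was not uniform: the 47 hormone-sensing luminal nuclei, pooled over animals, held 10 Cers6 UMIs, or 65.3 CPM with an exact Poisson 95% interval of 31.3 to 120.1, which covers counting error only. Whether the few Cers6 UMIs of secretory nuclei were free RNA was not tested.

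Cers4, which is known to favour longer saturated chains, was the rarest, with 692 UMIs over all barcodes. Its means were 31.7 ± 24.5 CPM in vascular endothelium and 20.7 ± 5.22 CPM in fibroblasts. Adipocytes had 9.54 ± 5.87 CPM, on 0 to 4 UMIs per animal, and secretory luminal nuclei 0.302 ± 0.227 CPM. Fibroblasts of each animal lay above that animal's adipocytes in 7 of 8. Cers5, whose product chains are known to resemble those of Cers6, was even outside the secretory epithelium, between 51.2 CPM in luminal progenitors and 65.3 ± 18.1 CPM in adipocytes. Secretory luminal nuclei had 32.7 ± 4.53 CPM of Cers5, below the adipocytes of the same animal in 8 of 8. Cers2, the synthase for very long chains, ranged from 28.3 ± 4.08 CPM in secretory luminal nuclei to 49.0 ± 22.0 CPM in adipocytes, and all neighbours overlapped. The adipocyte mean joins groups that did not overlap: adipocytes were above vascular endothelium of the same animal in the 4 floxed animals and below it in the 4 labelled knockout animals. Secretory nuclei thus had the lowest mean of the 7 cell types for Cers5, Cers2 and Cers4. For Cers6 only luminal progenitors had a lower mean.

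Degs1 differed little, with means from 16.9 CPM in secretory luminal nuclei to 27.9 CPM in luminal progenitors, all neighbours overlapping. The enzymes that use ceramide did differ. Sgms1, the sphingomyelin synthase of the Golgi, had 619 ± 184 CPM in vascular endothelium, from 422.2 to 954.3, against 270 ± 102.2 CPM in macrophages and 158.3 to 208.5 CPM in the other 5. All 8 animals had more Sgms1 in endothelium than in adipocytes. Ugcg, the glucosylceramide synthase, was lowest in adipocytes, at 31.6 ± 15.1 CPM. Secretory luminal nuclei had 86.0 ± 5.42 CPM of Ugcg, from 75.8 to 94.8, above the highest adipocyte value of 52.8. Ugcg was lower in adipocytes than in secretory, fibroblast, endothelial and macrophage nuclei of the same animal in 8 of 8.

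Acer2, an alkaline ceramidase of the Golgi, had its highest means in 2 of the tested cell types. Its mean was 113 ± 55.4 CPM in vascular endothelium, from 18.4 to 189.1, and 84.5 ± 51.4 CPM in adipocytes, from 22.0 to 159.8. The adipocyte mean joins groups that did not overlap, with means of 42.4 CPM in floxed and 126.7 CPM in labelled knockout animals. The other 5 cell types had means between 6.19 CPM in fibroblasts and 11.8 CPM in macrophages. The ranges of adipocytes and macrophages overlapped, as macrophages reached 24.8 CPM. In each of 8 animals adipocytes had more Acer2 than these 5 types, and endothelium was above adipocytes in 4 of 8. Pericytes, pooled over 142 nuclei, held 34 Acer2 UMIs, or 74.8 CPM with an exact Poisson 95% interval of 51.8 to 104.5.

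**Figure D2:**
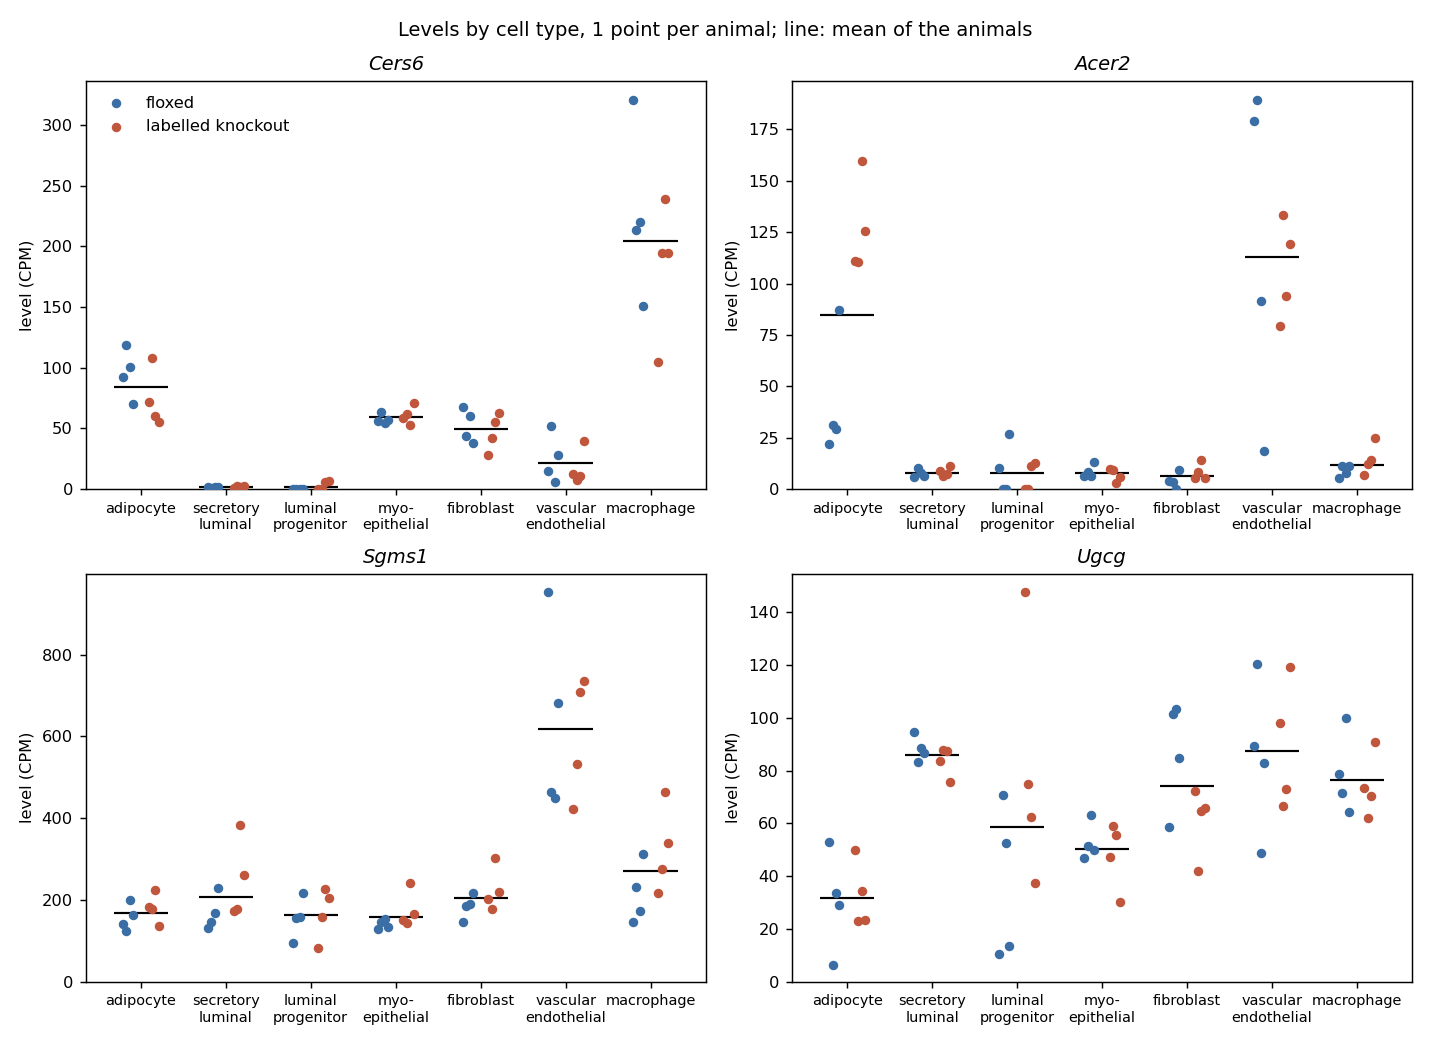
Level (CPM) of Cers6, Acer2, Sgms1 and Ugcg in 7 cell types, with 1 point per animal (blue floxed, red labelled knockout) and a line at the mean of 8 animals. Cers6 is highest in macrophages and near 0 in both luminal types, and the red points of Acer2 lie above the blue ones in adipocytes.

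The genes whose level over the 9 named cell types ran most like each enzyme were taken by Pearson's r of log2(CPM + 1), among genes with at least 200 UMIs. For Sgms1 these were Notch4 (r = 0.954), Kdr (r = 0.928) and Rasgrp3 (r = 0.924), of which Notch4 and Kdr are receptors known from endothelium. For Acer2 they were Fabp4 (r = 0.933), the fatty acid binding protein of adipocytes and capillary endothelium, then Atp5h (r = 0.929) and Snrk (r = 0.917). Tbc1d16 (r = 0.960), Zfp14 (r = 0.922) and Acad12 (r = 0.912) were nearest to Cers6. Sptlc2 ran with Map3k3 (r = 0.968), Evl (r = 0.943) and Gnai2 (r = 0.924), and its r with Sptlc1 was 0.34. Zfp62 (r = 0.973), Fxr1 (r = 0.968) and Ddx24 (r = 0.965) were nearest to Sptlc1. Among pairs of the 10 enzymes the highest r was 0.89, for Cers5 with Sptlc1, and the lowest was -0.88, for Ugcg with Sptlc1. The remaining leaders were Mtx3 for Cers2 (r = 0.988), Rnf103 for Cers5 (r = 0.971), Bcl2l12 for Degs1 (r = 0.958) and Man1c1 for Ugcg (r = 0.991). Cers4 had fewer than 200 UMIs in assigned nuclei and was not ranked. With 9 points from 1 library, several of them on few nuclei, high values of r are common, and they are given as a description.

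The genotype comparison asked whether these enzymes differed in adipocytes of dams labelled as lacking Oxtr there. In adipocyte nuclei the mean level of Acer2 was 2.99-fold, that of Sptlc2 2.77-fold and that of Sptlc1 2.03-fold as high in labelled knockout as in floxed animals, while Cers2 was at 0.454 of the floxed mean. The values of the 2 groups did not overlap for these 4 genes, 3 higher and 1 lower. Among the 11167 genes with at least 10 UMIs in adipocytes, 2.15% were higher and 1.5% lower without overlap. Of these 4 genes, Sptlc1 did not pass a filter on low counts and was not tested there. With that filter, all 8 animals and no blocks by replicate number, none of the other 3 passed the test adjusted over the genes tested in adipocytes. That test was edgeR's quasi-likelihood test with Benjamini-Hochberg adjustment over the 4070 genes that passed its filter on low counts. It called 1 gene, or 0.0246%, at an adjusted p under 0.05, namely Ofcc1, named after its values were seen. Unadjusted p-values were under 0.05 for 324 genes. Of the enzymes 6 passed the filter, 0 were called, and 3 (Acer2, Sptlc2 and Cers2) were among these 324 genes. The filter can pass a gene on the counts of 1 group alone. Acer2 and Sptlc2 had their higher levels in labelled knockout animals and Cers2 in floxed animals. Their number is therefore a description and not support for a pattern. With DESeq2 there were 4 calls, 0 of them enzymes. In edgeR the median log2 change of the 6 enzymes tested, 4 higher and 2 lower, was 0.358, against 0.000 over all genes tested. This median rests on the same filter and on enzymes chosen with values by animal in view. It is a description and not support for a shift of the enzymes as a set.

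Acer2 in adipocytes was 22.0, 31.2, 29.3 and 87.2 CPM in floxed animals 1 to 4, on 5, 5, 7 and 15 UMIs. Labelled knockout animals 1 to 4 had 110.8, 110.7, 159.8 and 125.4 CPM, on 31, 43, 37 and 32 UMIs. All labelled knockout animals were above all floxed animals, and floxed animal 4 lay nearest to them. Floxed animals averaged 42.4 ± 30.1 CPM and labelled knockout animals 126.7 ± 23.1 CPM (SD, n = 4 each). The log2 change was 1.61 ± 0.34 (SE), and its adjusted p in edgeR was 0.16. With no filter on low counts the gene passed in edgeR, at a log2 change of 1.64 and an adjusted p of 0.00074. That fit called 53 of 18045 genes. Without floxed animal 4, the log2 change was 2.17 with an adjusted p of 0.00887, and the gene then passed, among 29 of 4383 genes. Without any other single animal no enzyme passed in adipocytes, and the log2 change of Acer2 fell to as low as 1.37. The UMIs were spread over 29 of 161 floxed and 79 of 212 labelled knockout nuclei, with at most 5 in 1 nucleus.

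Sptlc2 in adipocytes was 30.8, 18.7, 46.1 and 34.9 CPM in floxed animals 1 to 4. It was 82.2, 82.4, 90.7 and 105.8 CPM in labelled knockout animals 1 to 4, so the lowest of these was well above the highest floxed value. The means were 32.6 ± 11.3 and 90.3 ± 11.1 CPM, on 27 and 103 UMIs, with a log2 change of 1.40 ± 0.30 (SE) and an adjusted p of 0.16 in edgeR. With no filter Sptlc2 passed in edgeR, at a log2 change of 1.43 and an adjusted p of 0.0196, among 53 of 18045 genes. These UMIs came from 25 floxed and 68 labelled knockout nuclei. The 4 lowest of the 8 adipocyte values of Sptlc2 were those of the floxed animals.

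Sptlc1, the partner subunit, was too low for the filter. Floxed animals 1 to 4 had 13.2, 24.9, 16.8 and 29.1 CPM and labelled knockout animals 1 to 4 had 32.2, 51.5, 43.2 and 43.1 CPM. The groups again did not overlap, by a narrow gap between floxed animal 4 and labelled knockout animal 1. The means were 21.0 ± 7.29 and 42.5 ± 7.92 CPM, on 16 and 50 UMIs. With no filter, edgeR gave a log2 change of 1.09 ± 0.45 and an adjusted p of 0.654.

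Cers2, the synthase for very long chains, went the other way. Floxed animals 1 to 4 had 79.1, 56.1, 58.6 and 75.6 CPM, and labelled knockout animals 1 to 4 had 35.7, 41.2, 25.9 and 19.6 CPM. Every labelled knockout animal was below every floxed animal. The means were 67.4 ± 11.7 and 30.6 ± 9.69 CPM, on 54 and 37 UMIs, with a log2 change of -1.09 ± 0.31 and an adjusted p of 0.3 in edgeR.

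**Figure D3:**
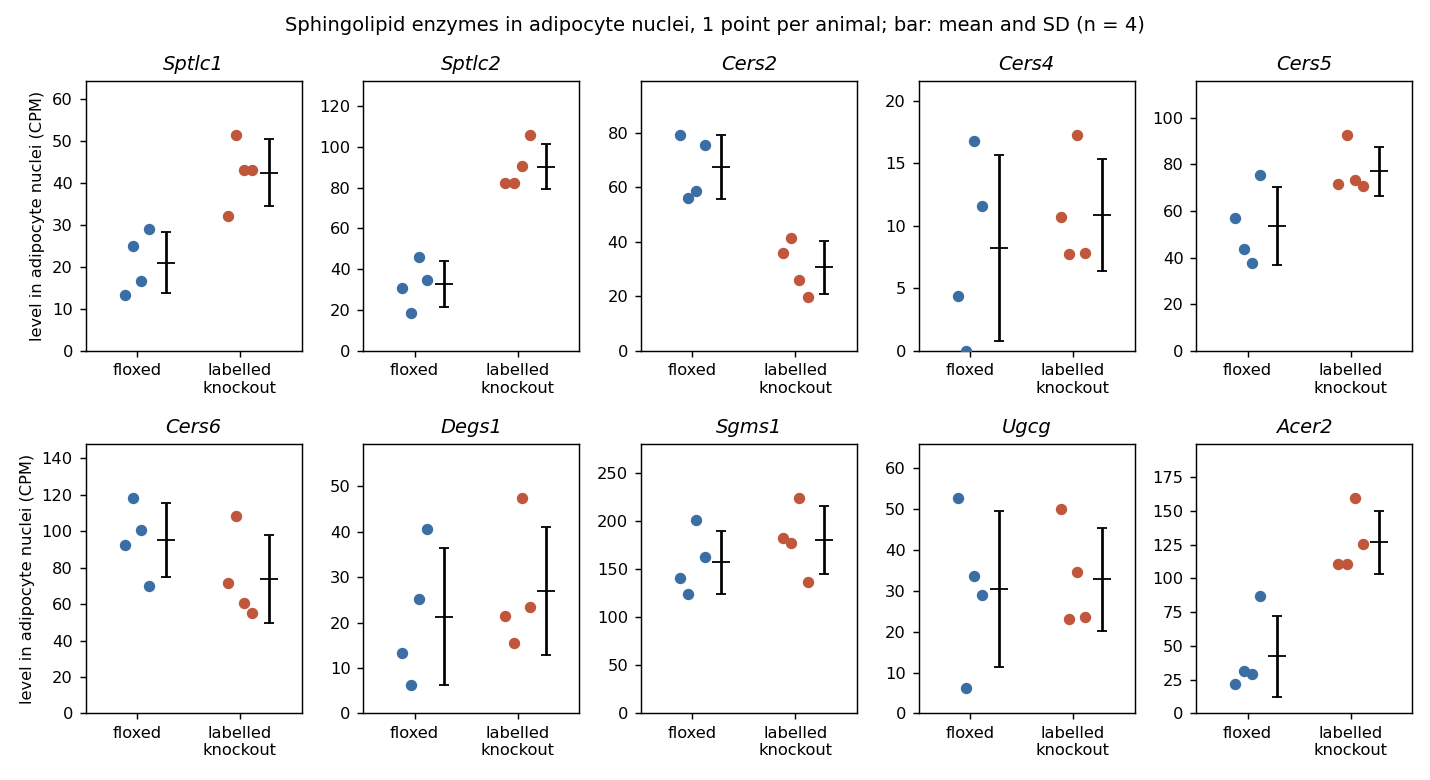
Level (CPM) of each enzyme gene in adipocyte nuclei, with 1 point per animal and a black bar for the mean and SD of 4 animals. Sptlc1, Sptlc2 and Acer2 are higher and Cers2 is lower in all labelled knockout animals (red) than in all floxed animals (blue), and the other 6 genes overlap.

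The other 6 enzymes overlapped between the groups in adipocytes. Cers5 was 53.5 ± 16.8 CPM in floxed and 77.0 ± 10.5 CPM in labelled knockout animals, a log2 change of 0.54 ± 0.29 with an adjusted p of 0.655 in edgeR. Cers6 was 95.2 ± 20.2 and 73.7 ± 23.9 CPM, and Sgms1 was 157.3 ± 33.1 and 180.4 ± 35.7 CPM; their log2 changes were -0.34 ± 0.28 and 0.17 ± 0.22. Leaving out 1 animal moved these from -0.61 (without labelled knockout animal 2) to -0.23 for Cers6, and from 0.07 (without labelled knockout animal 3) to 0.32 (without floxed animal 3) for Sgms1. Cers4 (7 and 12 UMIs), Degs1 (17 and 29 UMIs) and Ugcg (26 and 37 UMIs) did not pass the filter. At such counts only large differences would be detectable. Ugcg in adipocytes was 30.4 ± 19.1 and 32.8 ± 12.6 CPM, and Degs1 was 21.3 ± 15.1 and 27.0 ± 14.1 CPM.

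Other measures of these adipocyte nuclei were compared as well, and the groups overlapped in those given here apart from the adipocyte markers. The summed level of the 10 adipocyte markers was 23868 to 32784 CPM in floxed and 19720 to 21711 CPM in labelled knockout animals, without overlap. The summed secretory luminal markers were 61287 to 77710 and 69444 to 81273 CPM, vascular endothelial markers 11.6 to 149.6 and 3.57 to 207.2 CPM, and macrophage markers 87.2 to 175.9 and 142.5 to 200.1 CPM, all overlapping. No endothelial, macrophage or secretory marker was at 0 in the adipocyte sums. Median depth per adipocyte nucleus was 4110.5 to 5547 UMIs in floxed and 4256 to 4389 UMIs in labelled knockout animals. On the first principal component of the adipocyte sums, floxed animal 4 (11) lay among the labelled knockout animals (-2.61 to 17.5) and the other floxed animals at -23.1 to -6.77. The part of these in the differences of the 4 genes was not tested.

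In secretory luminal nuclei, where sums reached 9262797 UMIs per animal, the 9 enzymes that passed the filter gave smaller changes and 0 calls. The edgeR test called 0 of 12893 genes there, or 0%. Unadjusted p-values were under 0.05 for 1060 genes, among them Cers2, Sptlc1 and Cers5, and with DESeq2 there were 28 calls, 0 of them enzymes. Cers2 was 32.1, 32.9, 29.0 and 31.1 CPM in floxed and 27.6, 27.8, 20.3 and 25.5 CPM in labelled knockout animals. Sptlc1 was 21.3, 20.5, 22.7 and 23.9 CPM in floxed and 25.5, 26.1, 27.9 and 25.3 CPM in labelled knockout animals. Neither gene's groups overlapped, so 1 of 10 enzymes was higher and 1 lower in this sense, against 1.89% and 1.68% of 17699 genes. The log2 changes were -0.33 ± 0.14 for Cers2 and 0.21 ± 0.09 for Sptlc1, with adjusted p of 0.592 and 0.607. Cers2 and Sptlc1 therefore had the same direction in secretory as in adipocyte nuclei, at a smaller size.

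Sptlc2 in secretory nuclei was 66.3 ± 9.58 CPM in floxed and 55.7 ± 4.30 CPM in labelled knockout animals, with a log2 change of -0.30 ± 0.14 and an adjusted p of 0.607. Acer2 was 7.63 ± 1.91 and 8.43 ± 2.04 CPM. Sgms1 was 130.6, 145.6, 168.4 and 228.3 CPM in floxed and 173.8, 177.5, 383.5 and 260 CPM in labelled knockout animals. Its log2 change of 0.52 ± 0.23 had an adjusted p of 0.607 in edgeR. Labelled knockout animal 3, the highest for Sgms1, also stood apart on the first principal component of the secretory sums (45.9, against -33.1 to 13.2 for the other 7) and had the lowest share of milk protein UMIs, 11.4% against 14.6% to 16.9%. Without that animal the log2 change of Sgms1 was 0.29, with an adjusted p of 0.838 in edgeR. Ugcg, Cers5, Cers6 and Degs1 had log2 changes of -0.12, 0.25, 0.39 and 0.16, with adjusted p from 0.607 to 0.904.

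The difference between the adipocyte change and the secretory luminal change was tested in 1 model with animals as blocks. Sptlc2 passed: its change in adipocytes exceeded that in secretory nuclei by 1.78 ± 0.35 (SE, log2 scale), with an adjusted p of 0.0172 in edgeR over 12539 genes. It was 1 of 10 enzymes called, against 5 of all genes, or 0.0399%; the other 4 were Prkg1, Ctnnal1, Pld1 and Sipa1l1, named after their values were seen. Acer2 differed by 1.63 ± 0.42 with an adjusted p of 0.194, Sptlc1 by 0.96 ± 0.46 with 0.749 and Cers2 by -0.70 ± 0.37 with 0.812. The Sptlc2 call was lost without floxed animal 2 (adjusted p of 0.107), without floxed animal 3 (0.088), with DESeq2 (0.121), with all hashtags in the calling (0.0671) and with finer clusters (0.0668). Without floxed animal 4 Acer2 passed as well, with an adjusted p of 0.00274, among 60 of 12826 genes.

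In the other 5 cell types none of the enzymes was called. Sptlc2 had log2 changes of -0.17 ± 0.19 in myoepithelial nuclei, -0.47 ± 0.20 in fibroblasts, 0.13 ± 0.36 in luminal progenitors, -0.47 ± 0.33 in vascular endothelium and -0.33 ± 0.23 in macrophages. The same model against each of these 5 types, added after the values were seen, gave differences for Sptlc2 of 1.58 ± 0.37, 1.90 ± 0.38, 1.22 ± 0.49, 1.81 ± 0.49 and 1.75 ± 0.40 in that order. Their adjusted p were 0.16, 0.115, 0.716, 0.684 and 0.412 in edgeR, so none passed. Of all genes these models called 0.0244% against vascular endothelium (1 of 4098 genes, none of the enzymes) and 0% against the other 4 types. All 5 share the adipocyte sums with the first comparison and are not separate evidence. Acer2 in vascular endothelium, its other high cell type, had a log2 change of -0.08 ± 0.48.

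The share of genes called in these 5 types was 0.0142% in myoepithelial nuclei (1 gene, Got1, of 7054, named after its values were seen) and 0% in fibroblasts, luminal progenitors, endothelium and macrophages. At an unadjusted p under 0.05 in edgeR, the fibroblast test held 262 of 6402 genes. Among them were 2 of the 7 enzymes tested, Sptlc2 and Ugcg (log2 change -0.51 ± 0.24). Myoepithelial nuclei held none of the 8 enzymes tested. Luminal progenitors, endothelium and macrophages held none either, but there only 2, 3 and 5 enzymes were tested.

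**Figure D4:**
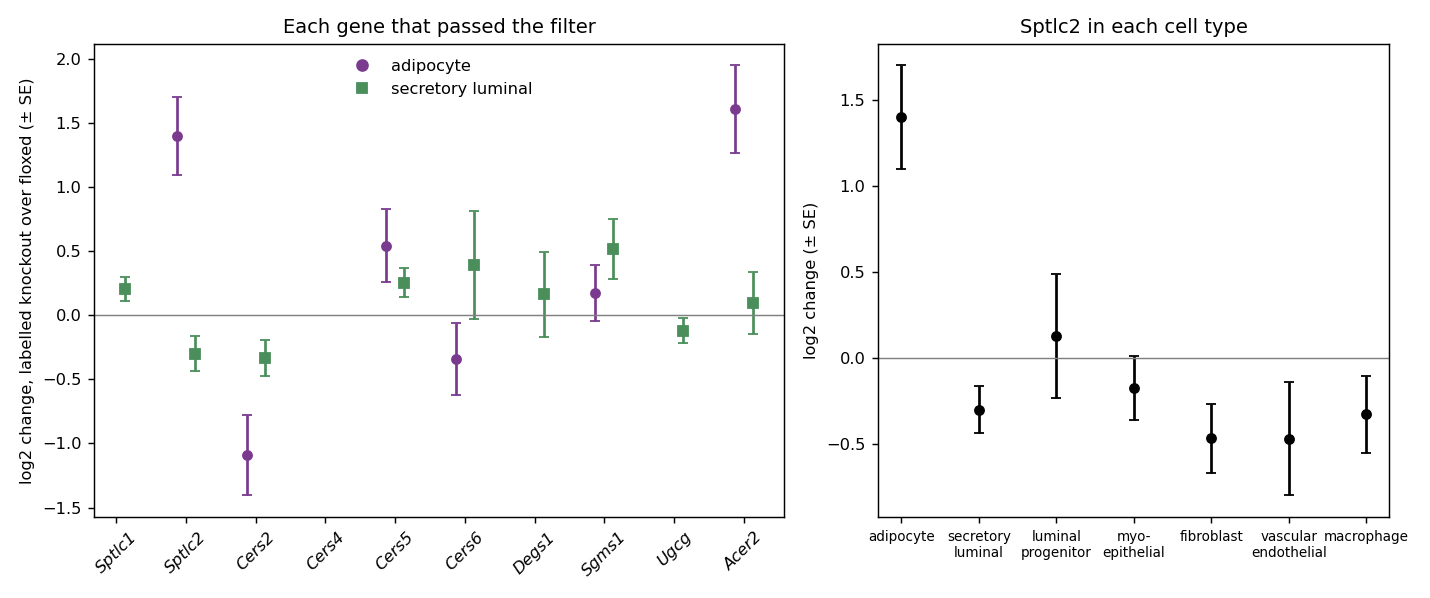
Left, log2 change of each enzyme gene that passed the filter (labelled knockout over floxed, ± SE, 4 animals each) in adipocyte and secretory luminal nuclei. Right, the log2 change of Sptlc2 in 7 cell types, which is 1.40 in adipocytes and between -0.47 and 0.13 in the others.

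The rest of the pathway was read from 8 fixed lists. Of the 49 listed genes outside the 10 enzymes, 9 passed the filter in adipocytes and 28 in secretory luminal nuclei, and none was called in either. Among regulators and partners of serine palmitoyltransferase, 2 of 7 passed in adipocytes: Kdsr, which reduces the first sphingoid base, at -0.35 ± 0.28 (log2, SE) and Ormdl3, an inhibitor of the enzyme, at 0.12 ± 0.24. Of 9 genes of ceramide breakdown and sphingosine phosphate, 4 passed, 3 of them higher, with Sgpl1, the sphingosine phosphate lyase, at 0.48 ± 0.31 and the ceramidases Asah2 and Acer3 at 0.15 ± 0.30 and 0.16 ± 0.33. Psap, the precursor of the saposins that help to degrade glycosphingolipids, was the gene of 11 in its list that passed, at 0.63 ± 0.25 with an adjusted p of 0.571. Cert1, the ceramide transfer protein, was at 0.20 ± 0.25. None of the 4 further ceramide synthesis genes, 6 sphingomyelin genes or 5 sphingosine phosphate receptors passed the filter.

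In secretory luminal nuclei Kdsr was at 0.25 ± 0.15, Ormdl2 at -0.10 ± 0.13 and Ormdl3 at 0.08 ± 0.11, and the list's median over 5 genes was 0.052 against -0.007 over all genes tested. Sgms2, the second sphingomyelin synthase, was at 0.67 ± 0.41, Smpd2 at 0.23 ± 0.18 and Smpd4 at -0.15 ± 0.16, both sphingomyelinases. Asah2 was at 0.34 ± 0.16, Sgpl1 at 0.23 ± 0.14 and Acer3 at -0.16 ± 0.11. Psap was at 0.46 ± 0.19 and B4galt6, the lactosylceramide synthase, at -0.90 ± 0.78. Cptp, a ceramide phosphate transfer protein, was at 0.53 ± 0.21, Cert1 at 0.02 ± 0.12, Spns2, a sphingosine phosphate exporter, at -0.01 ± 0.49 and the receptor gene S1pr2 at 0.10 ± 0.30. The adiponectin receptor gene Adipor2 was at -0.48 ± 0.22 in adipocytes and 0.67 ± 0.20 in secretory nuclei, with adjusted p of 0.613 and 0.557, and Adipor1 was at 0.01 ± 0.15 in secretory nuclei.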

How the data were processed

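The members and the gene lists were chosen with earlier results of these data known. The authors deposited raw UMI counts per gene and nucleus, and a table of hashtag molecules of unit other (a read number behind each hashtag UMI), whose lines were counted. Cell Ranger 7.2.0, fastp and the build GRCm39 are named, per the submitters' processing notes. Barcodes with at least 500 UMIs, 300 genes and under 5% mitochondrial UMIs were kept (20854). HTODemux (Seurat 5.3.0), given 9 of 10 hashtags, assigned nuclei to animals and removed 1964 doublets. Scrublet scores served as an alternative only, since its own threshold called 1 barcode. Nuclei were clustered with scanpy 1.11.5 (2000 variable genes, 30 components, Leiden resolution 0.5) and named by fixed markers. A cluster needed at least 3 markers raised 2-fold. The 3 clusters that stayed unnamed had too few markers, many mitochondrial leading genes, or more leading genes from another marker list. Sums per animal and cell type (at least 10 nuclei) were tested with edgeR 4.0.16 (TMM, filterByExpr, robust quasi-likelihood fit, adjusted p under 0.05), or DESeq2 1.42.0 as an alternative. The scripts were tested on simulated data. Intervals cover counting error only. Genes named were the 10 members, up to 3 genes per list with the smallest p in adipocyte and secretory nuclei, the 3 genes most like each member, Oxtr and the milk protein genes; a listed gene that this rule names is not reported here.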

Additional observations from a re-analysis of the deposited data

Results flagged for a closer look

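Acer2 in adipocytes of floxed animal 4 stood apart from the other 3 floxed animals, at 87.2 CPM against 22.0 to 31.2. Cers5 in adipocytes of labelled knockout animal 2 stood apart in its group, at 92.7 CPM against 70.5 to 73.4. Dixon's test was applied to 40 groups of 4 animals, and chance flags about 1 in 20 groups, the number found here.

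The log2 change of Sptlc2 in adipocytes exceeded that in secretory luminal nuclei by 1.78, with an adjusted p of 0.0172 in edgeR. Its adipocyte level was higher in 4 of 4 labelled knockout animals than in any floxed animal. Over the alternatives that were run the adjusted p of this difference lay between 0.0021 and 0.121. The call was lost with DESeq2, with all hashtags, with finer clusters and without floxed animal 2 or 3. Against each of the other 5 cell types the difference did not pass, with adjusted p from 0.115 to 0.716 in edgeR.

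Nuclei that carried the hashtag of an unknown sample, which entered no comparison, also held RNA of the 10 enzymes. These 266 nuclei held 1180 of their UMIs among 1607304 in all, a summed level of 734.1 CPM. Of these nuclei 237 fell in an unnamed cluster with Nrg3 and Kcnip4 among its leading genes. The labels give this sample no group.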

How the results depend on the processing

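Acer2, Sptlc2 and Cers2 kept their direction in adipocytes in every alternative run. No enzyme was called in adipocytes by edgeR with the filter, no block and all 8 animals. With no filter 2 of 10 were called, Acer2 with an adjusted p of 0.00074 and Sptlc2 with 0.0196, among 53 calls in 18045 genes. With the replicate block 2 of 6 were called, Acer2 with 0.036 and Sptlc2 with 0.0497, among 23 calls in 4070 genes. Leaving out each animal gave 0 to 1 enzymes and 0 to 29 genes, the highest without floxed animal 4. Genes called in adipocytes were 4 with DESeq2 and 0 without the highest Scrublet scores.

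The adipocyte against secretory test called 0 enzymes with DESeq2, with all hashtags and at Leiden resolution 1.0, and 0 to 2 when leaving out each animal, with 0 to 60 genes (0 without floxed animal 3, 60 without floxed animal 4). Its genes were 25 with no filter, 0 with DESeq2, 3 with all hashtags and 15 without the highest Scrublet scores. That model already has animals as blocks, so it has no separate replicate block.

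Genes called in secretory luminal nuclei were 28 with DESeq2, 5 with no filter, 12 at Leiden resolution 1.0 and 0 to 26 without each animal. Myoepithelial nuclei gave 4 with DESeq2, 38 with no filter, 19 with the replicate block, 45 with all hashtags, 0 without the highest Scrublet scores and 1 to 13 without each animal. Fibroblasts gave 5 with no filter and 0 to 2 without each animal, and luminal progenitors 0 to 2. Vascular endothelium gave 1 with DESeq2, 3 with no filter, 1 with the replicate block, 1 with all hashtags and 0 to 1 without each animal. Macrophages gave 1 with DESeq2, 40 with no filter and 0 to 1 without each animal. No enzyme was called in these 6 types under any alternative, and the replicate block changed no other call of an enzyme. The cause of these moves was not tested, apart from fewer animals or other genes in the fit.

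Small changes turned sign. In secretory nuclei Degs1 gave -0.0528 to 0.40 without each animal (-0.0528 and -0.02 without floxed animals 3 and 2) and -0.15 with the ratio rule. There Ugcg gave 0.00609 with the ratio rule, and Acer2 gave -0.0863 to 0.29 without each animal (-0.0863 without labelled knockout animal 4, -0.00119 without floxed animal 1) and -0.0844 with the ratio rule. In the adipocyte against secretory test Degs1 gave -0.23 to 0.55 (-0.23 and -0.20 without floxed animal 1 and labelled knockout animal 3) and Ugcg -0.11 to 0.54 (-0.06 and -0.11 without floxed animal 2 and labelled knockout animal 1), and Cers5 gave -0.0429 at Leiden resolution 1.0. The mean Cers4 level in adipocytes was 1.71 CPM after thinning to 1000 UMIs, near the level of 1 UMI, and the other 109 alternative levels moved by less than 1 SD. The ratio rule left too few animals for 5 cell types, adipocytes among them, and for the test between cell types, and was not run there. Leaving out 1 animal also moved by over 1.5 times, without a turn of sign, the secretory changes of Cers2 (-0.39 to -0.22), Ugcg (-0.16 to -0.07), Cers6 (0.10 to 0.61) and Sgms1 (0.29 to 0.66). The replicate numbers name no shared litter or day. Deviations of same-numbered animals correlated with r from 0.0253 to 0.231 in adipocytes and from -0.0173 to 0.25 in secretory nuclei, and not every animal correlated best with its own number. Depth limits luminal progenitors, vascular endothelium and macrophages most, where 2, 3 and 5 of 10 enzymes passed the filter, then adipocytes with 6.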
